A study of Mus musculus with 45 samples.

Results

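This report describes 40 mouse genes that encode nuclear proteins and are widely listed among high-confidence autism risk genes, in RNA sequencing data from 3 brain regions of WT and Shank3-mutant mice. The genes were taken by name and not by measured values, although earlier results of these data were known. All 40 were found among the 18135 genes of the deposited table. They encode chromatin remodelling enzymes (Chd8, Chd2, Arid1b, Smarcc2), histone methyltransferases (Ash1l, Kmt2a, Kmt2c, Kmt5b, Setd5, Nsd1, Ehmt1), histone acetyltransferases (Crebbp, Ep300), histone demethylases (Kdm6b, Kdm5b), a DNA methyltransferase and a member of the methyl-CpG-binding domain family (Dnmt3a, Mbd5), and proteins of heterochromatin and genome architecture (Adnp, Pogz, Ctcf, Nipbl). The others are cofactors and adaptors (Phf21a, Phf12, Asxl3, Ankrd11, Rai1, Tcf20, Med13l, Auts2, Wac), sequence-specific transcription factors (Foxp1, Tcf4, Tcf7l2, Bcl11a, Myt1l, Satb1), and a kinase, ubiquitin ligase components and an RNA-binding protein (Dyrk1a, Trip12, Cul3, Hnrnpu).

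The samples were cortex (prefrontal cortex in the labels), hippocampus and striatum of male C57BL/6J mice at 13 weeks of age. Each region had 5 WT, 5 heterozygous (Shank3-HT) and 5 homozygous (Shank3-HM) mice, which made 9 groups and 45 samples. The mutant mice come from 1 line and carry a deletion of a few exons of Shank3, a postsynaptic scaffold gene. The labels call the homozygous mice knock-out, and the columns of the table write KI for them. Shank3 RNA was lower in Shank3-HM than in WT mice, with log2 differences of −0.98 (cortex), −1.06 (hippocampus) and −1.11 (striatum; adjusted p = 4.764e-07, 1.187e-10 and 3.696e-07; limma). In Shank3-HT mice it was at 76.68%, 74.09% and 70.82% of the WT mean, with adjusted p values of 0.2878, 0.0002185 and 0.04944.

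Proteins of these families set which genes a cell can use. Remodelling enzymes slide or evict nucleosomes, methyltransferases, acetyltransferases and demethylases write and erase marks on histone tails, and transcription factors bring such enzymes to particular DNA sequences. Most of them act in every cell, whereas some of the transcription factors mark particular neuron types in the adult forebrain, such as Foxp1 in striatal projection neurons and Satb1 in cortical neurons and interneurons.

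Values are normalized counts, and differences are on the scale of log2(value + 1). limma was run on genes whose mean was 10 or more, and a gene was called at an adjusted p value (Benjamini-Hochberg over all genes tested) under 0.05. The 40 regulators all passed the filter in every region and in every genotype. Not scaled by length, their means over the 15 samples of a region ran from 125.8 (Tcf7l2, cortex) to 14960 (Hnrnpu, striatum).

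Some samples stood apart. Cortical Shank3-HM replicate 2 had a sum of 10 striatal projection neuron markers of 51970, against a group median of 6869, and of 8 cortical projection neuron markers of 31560, against 52350. Without it 22 of the 40 regulators were higher in Shank3-HM than in WT cortex, and 23 with it, but 7 turned their sign (Smarcc2, Kdm5b, Dnmt3a, Foxp1, Tcf4, Tcf7l2 and Satb1). None of these 7 was called with or without it, and Tcf7l2 moved the most, from 0.06 to −0.20. In hippocampal WT replicate 1, 31 of the 40 regulators were the lowest of the 5 mice. Values without cortical Shank3-HM replicate 2 or hippocampal WT replicate 1 are given beside some results. These are results where leaving the mouse out ended a call, turned a direction described here or moved a called difference by over 1.5 times.

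The regulators were long genes. Their longest annotated transcript had a median length of 7413 bases and a median coding length of 4304 bases, against 3275 and 1427 bases over all genes tested. Each of the 40 exceeded both of these medians. Per 1000 bases of the longest transcript, the regulators lay at a median percentile of 71.91 among genes in WT cortex, 70.83 in WT hippocampus and 74.47 in WT striatum. On this scale the lowest level was that of Asxl3, a Polycomb-associated cofactor, in all 3 regions (30.78, 27.01 and 17.11 normalized counts per 1000 bases). Smarcc2, a core subunit of the BAF remodelling complex, was highest in cortex at 2049. Hnrnpu, an abundant nuclear RNA-binding protein, was highest in hippocampus at 1705 and striatum at 2045. Per 1000 bases of coding length the order changed. Hnrnpu was then highest in cortex (5744, against 2569 for Smarcc2) and striatum (6511), and Tcf4 in hippocampus (5830). The median percentiles were then 57.39 in cortex, 57.31 in hippocampus and 60.69 in striatum.

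For 31 of the 40 genes RefSeq promoter sequences were at hand (build GRCm38.p6), and the 250 bases before the most upstream start listed there were examined. The other 9 were Chd2, Ash1l, Nsd1, Kdm6b, Nipbl, Asxl3, Wac, Tcf4 and Auts2. Of the 31 windows, 10 lie wholly inside the GENCODE span of their own gene (Arid1b, Bcl11a, Crebbp, Dnmt3a, Ep300, Foxp1, Phf21a, Setd5, Tcf20 and Trip12), so they precede an internal start. A CpG is the dinucleotide at which DNA methyltransferases act, and housekeeping promoters are rich in it. The windows of the regulators held a median of 26 CpGs, against 15 in all 12075 windows of tested genes, and 64.52% held at least 20, against 33.13%. The GC box (GGGCGG on either strand, which contains a CpG itself) was found in 83.87% of the 31 windows and in 57.25% of all windows. The CCAAT box (CCAAT, either strand) was found in 16.13% and 36.15%. TATAAA was in 0 of the 31 windows and in 6.576% of all windows, and CACGTG in 3.226% and 8.108%, both on either strand. These shares are descriptions without a test.

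Windows are given here for Satb1 and Myt1l, which differed strongly between regions, for Pogz, which had the lowest unadjusted p value among the regulators in the Shank3-HT striatum, and for Ankrd11, which differed least between regions. Each reads 5′ to 3′ toward the start site, and capitals mark the CpGs. Satb1 lies at chr17:51833291-51833540 on the minus strand, Myt1l at chr12:29528134-29528383 on the plus strand, Pogz at chr3:94837187-94837436 on the plus strand and Ankrd11 at chr8:123042285-123042534 on the minus strand. In GENCODE vM21 the Pogz window lies outside annotated genes, and the other windows overlap exons of neighbouring genes not annotated as protein-coding, for 250 bases at Satb1 (Gm6934), 107 bases at Myt1l (Gm20208) and 69 bases at Ankrd11 (2810013P06Rik).
Satb1: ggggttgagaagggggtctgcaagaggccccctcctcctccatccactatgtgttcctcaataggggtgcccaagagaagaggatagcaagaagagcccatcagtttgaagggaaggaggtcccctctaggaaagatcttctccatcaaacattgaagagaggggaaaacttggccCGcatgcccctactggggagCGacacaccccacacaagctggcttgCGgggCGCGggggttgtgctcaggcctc
Myt1l: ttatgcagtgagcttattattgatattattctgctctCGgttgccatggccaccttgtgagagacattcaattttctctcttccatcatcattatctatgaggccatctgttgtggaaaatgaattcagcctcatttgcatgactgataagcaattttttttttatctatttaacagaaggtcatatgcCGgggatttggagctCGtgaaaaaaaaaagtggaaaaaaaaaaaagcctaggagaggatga
Pogz: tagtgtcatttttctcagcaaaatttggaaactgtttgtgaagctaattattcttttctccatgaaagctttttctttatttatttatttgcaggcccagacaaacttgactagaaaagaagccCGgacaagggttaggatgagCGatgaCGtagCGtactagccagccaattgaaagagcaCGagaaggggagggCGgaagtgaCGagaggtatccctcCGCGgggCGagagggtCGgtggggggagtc
Ankrd11: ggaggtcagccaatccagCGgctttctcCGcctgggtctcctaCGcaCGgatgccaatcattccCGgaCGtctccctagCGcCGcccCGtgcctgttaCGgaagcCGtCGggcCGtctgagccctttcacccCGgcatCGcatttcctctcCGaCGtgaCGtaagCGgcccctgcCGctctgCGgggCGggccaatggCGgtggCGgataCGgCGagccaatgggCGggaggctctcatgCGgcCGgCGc
The windows of Satb1, Myt1l, Pogz and Ankrd11 held 5, 3, 11 and 30 CpGs, respectively.

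The first comparison asked how the regulators differ between the 3 regions of WT mice. In the striatum more of them were high than in the other regions. Of the 40 genes, 26 differed between WT cortex and striatum, where 59.3% of all genes were called. Of these 26, 19 were higher in the striatum (47.5% of the regulators, against 30% of all genes) and 7 were higher in the cortex (17.5%, against 29.3%). Between hippocampus and striatum 27 differed (56.1% of all genes), of which 21 were higher in the striatum (52.5%, against 27.8%) and 6 in the hippocampus (15%, against 28.3%). Between cortex and hippocampus 15 differed (37.5%, against 46.6% of all genes), with 9 higher in the cortex (23.3% of all genes) and 6 higher in the hippocampus (23.3%).

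The 5 mice of each region did not overlap for 19 regulators between cortex and striatum (46.3% of all genes), 13 between hippocampus and striatum (38.5%) and 11 between cortex and hippocampus (32%).

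The striatum had the highest WT mean for 26 of the 40 regulators (37.65% of all genes), the cortex for 8 (31.73%) and the hippocampus for 6 (30.62%). The median difference of the 40 genes was −0.17 for cortex minus striatum and −0.17 for hippocampus minus striatum, where the medians of all genes were −0.01 and 0.00. Without hippocampal WT replicate 1, described above, 16 regulators were called between cortex and hippocampus (45.3% of all genes), with 7 higher in the cortex and 9 in the hippocampus. Quantile normalization of all mice gave 17 (47.7% of all genes), with 7 higher in the cortex and 10 in the hippocampus. Between hippocampus and striatum 21 were called without that mouse (53.2%), with 15 higher in the striatum and 6 in the hippocampus, and the median of the 40 was −0.11. The striatum was then highest for 26 regulators and each of the other regions for 7. These are bulk tissues, in which fewer cells of a type and less RNA per cell cannot be told apart. The summed level of 8 oligodendrocyte markers also differed between the regions, with 185300 to 245700 in the WT striatum, 143000 to 156000 in the WT hippocampus and 66550 to 86760 in the WT cortex, and its part in these differences was not tested. All 8 of these markers were called as higher in the striatum than in the cortex, and 5 of the 8 as higher in the striatum than in the hippocampus.

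**Figure D1:**
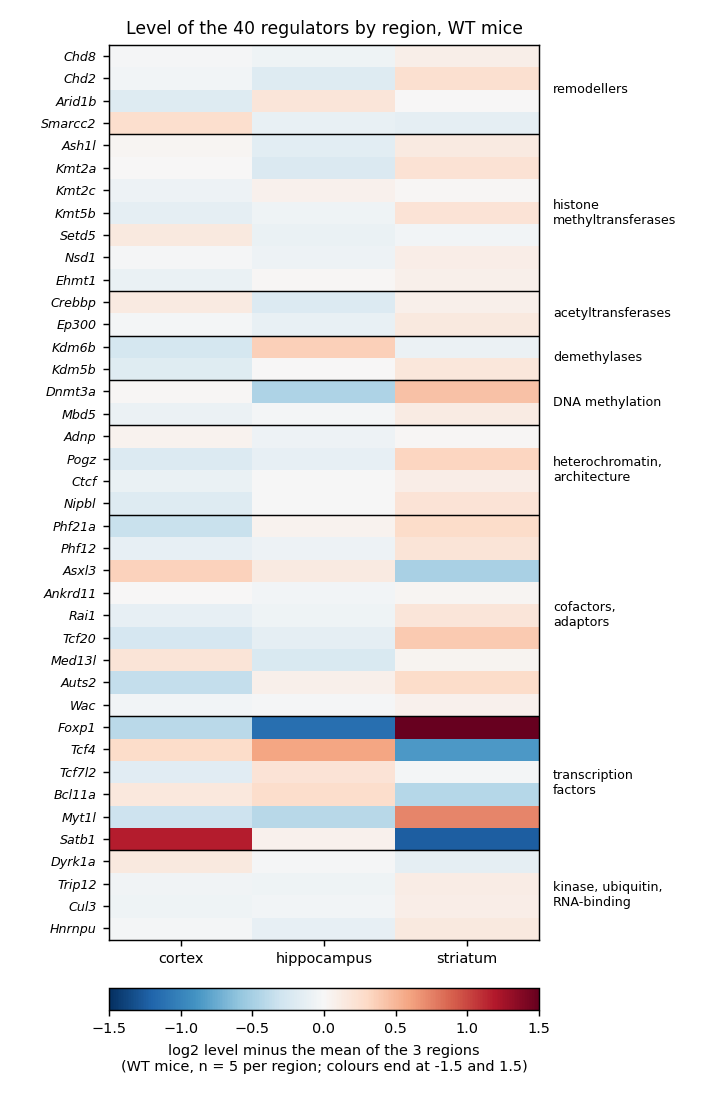
Log2 level of each of the 40 regulators in WT cortex, hippocampus and striatum, as the difference from the mean of the 3 regions (colour, log2 scale; mean of 5 mice), grouped by role. Foxp1, Satb1, Tcf4 and Myt1l have the strongest colours, and most of the other genes are pale.

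The transcription factors had the widest differences. The span between the highest and lowest WT region had a median of 1.30 on the log2 scale in the 6 transcription factors and of 0.32 in the other 34 regulators, against 0.50 over all genes tested. Members called with at least 1 on the log2 scale (2-fold) were Foxp1, Myt1l, Satb1 and Tcf4. All of these 4 passed between cortex and striatum (17.4% of all genes) and between hippocampus and striatum (16.2%), and 1, Satb1, between cortex and hippocampus (11.1%).

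Foxp1, a forkhead transcription factor, was highest in the striatum. The WT mice had 2956, 2979, 2742, 2908 and 2799 normalized counts in cortex, 1773, 1788, 1698, 1693 and 1712 in hippocampus, and 11380, 12350, 11590, 11240 and 8925 in striatum. The 3 regions did not overlap. Foxp1 was lower in the cortex than in the striatum by a log2 difference of −1.94 ± 0.08 (SE, n = 5; limma adjusted p = 2.602e-23). The hippocampus was lower still, with a difference from the striatum of −2.67 ± 0.08 (limma adjusted p = 1.208e-28) and a cortex minus hippocampus difference of 0.73 ± 0.08 (limma adjusted p = 2.387e-10). Foxp2, its paralogue, was also highest in the striatum, with 2155 ± 222.2 normalized counts (SD, n = 5), against 242.8 ± 39.88 in the cortex and 39.21 ± 13.87 in the hippocampus.

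Satb1, a genome organizer that tethers chromatin loops, was highest in the cortex and lowest in the striatum. WT values were 4258, 3988, 4187, 4637 and 3930 in cortex, 1726, 2060, 1805, 1951 and 2234 in hippocampus, and 801.6, 717.1, 733.2, 650.3 and 1110 in striatum. No values overlapped between regions. The cortex exceeded the striatum by 2.41 ± 0.13 on the log2 scale (5.313-fold; limma adjusted p = 1.945e-19) and the hippocampus by 1.11 ± 0.13 (limma adjusted p = 2.464e-09), and the hippocampus exceeded the striatum by 1.30 ± 0.13 (limma adjusted p = 1.967e-11). The striatal WT mouse with the highest Satb1 (1110, replicate 5) also had the highest sum of 8 cortical projection neuron markers among the striatal WT mice, 13070 against a group median of 5768.

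Tcf4, a basic helix-loop-helix factor whose loss of 1 copy causes Pitt-Hopkins syndrome, was lowest in the striatum. The WT mice had 9221, 10010, 9276, 10090 and 9754 normalized counts in cortex, 8997, 13240, 13230, 12220 and 12830 in hippocampus, and 3806, 4380, 4621, 4422 and 4707 in striatum. The striatum overlapped neither of the others, and the cortex and hippocampus overlapped through hippocampal replicate 1. The log2 differences were 1.14 ± 0.09 for cortex minus striatum and 1.45 ± 0.09 for hippocampus minus striatum (limma adjusted p = 3.864e-15 and 1.606e-18). The cortex was lower than the hippocampus, with a difference of −0.31 ± 0.09 (limma adjusted p = 0.002759), and of −0.41 without that replicate.

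Myt1l, a zinc-finger repressor that keeps neurons from expressing genes of other lineages, was highest in the striatum. WT values were 6116, 7164, 5996, 6650 and 6321 in cortex, 4880, 6477, 6476, 5720 and 6428 in hippocampus, and 13350, 14580, 13160, 13360 and 11770 in striatum. The striatal mice lay above all of the others. The log2 differences from the striatum were −1.04 ± 0.08 for the cortex and −1.15 ± 0.08 for the hippocampus (limma adjusted p = 1.024e-15 and 3.495e-17). Between cortex and hippocampus the log2 difference was 0.11, with a 95% interval of −0.04 to 0.26 (limma adjusted p = 0.2322). Its paralogue St18 had another order, with 1079 ± 127.3 normalized counts in the hippocampus, 414.9 ± 58.38 in the striatum and 124.1 ± 47.43 in the cortex (SD, n = 5).

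**Figure D2:**
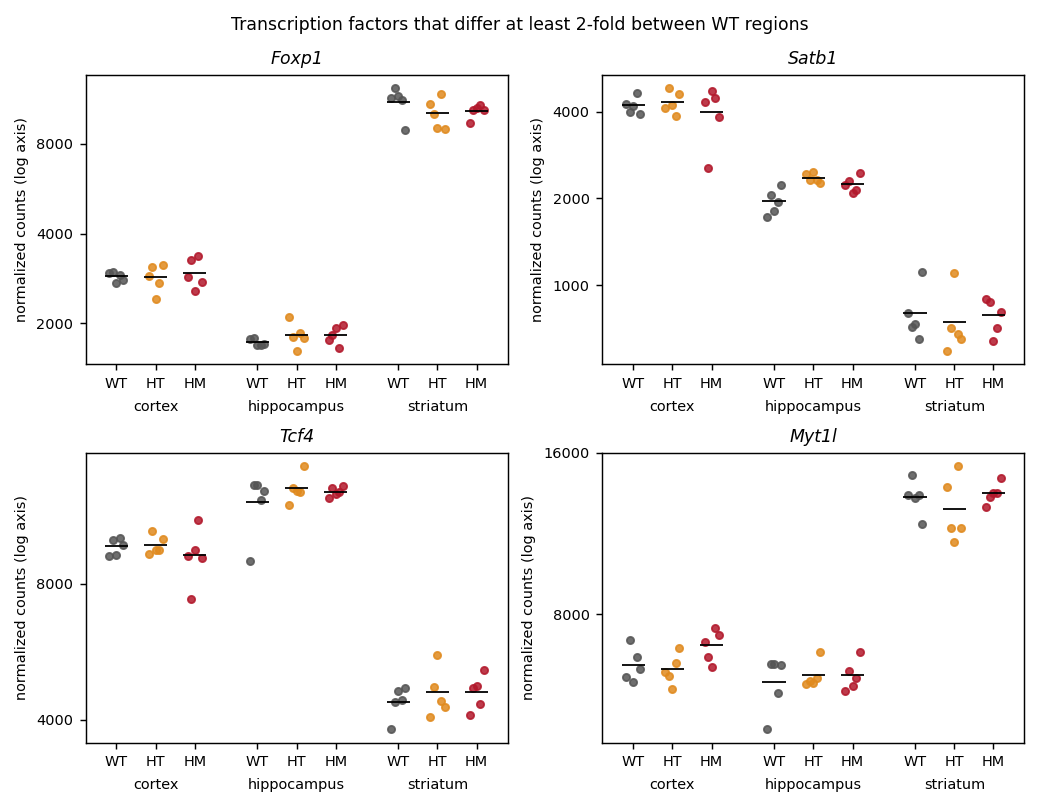
Normalized counts (log axis) of Foxp1, Satb1, Tcf4 and Myt1l in each mouse, by region and genotype; each point is 1 mouse and the lines are group means (n = 5). The regions separate in the same order in WT, HT and HM mice for Foxp1 and Satb1, and in Satb1 the cortical HM mouse at 2556 lies far below the others of its region.

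The other transcription factors differed less. Bcl11a, a zinc-finger factor of the BAF complex and of neuron identity, was lower in the striatum (1914 ± 166.7 normalized counts, SD, n = 5) than in the cortex (2868 ± 216.9) and the hippocampus (3089 ± 354.4), by 0.58 and 0.69 on the log2 scale (limma adjusted p = 4.518e-08 and 1.145e-09). Its paralogue Bcl11b was highest in the striatum, with 10260 ± 1363 in the striatum, 3972 ± 347.3 in the hippocampus and 1471 ± 106 in the cortex (SD, n = 5). Tcf7l2, the effector of Wnt signalling that is abundant in the thalamus, was called between no pair of WT regions. Hippocampal WT replicate 2 had 272.1 normalized counts of Tcf7l2, against 124.5 to 144.7 in the other 4. It also had the highest sum of 9 thalamic and habenular markers in that group, 2934 against a group median of 2112. Cortical Shank3-HM replicate 2 had 264 of Tcf7l2 and the lowest such sum of its group, 3113 against a median of 3709. The WT median of this sum was highest in the cortex, 3790, where mean Tcf7l2 was lowest. How the sum relates to Tcf7l2 was not tested.

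Among the remodelling enzymes, Smarcc2 was higher in the cortex (9349 ± 423.2 normalized counts, SD, n = 5) than in the striatum (7185 ± 363.3) and the hippocampus (7299 ± 485.9), by 0.38 and 0.36 on the log2 scale (limma adjusted p = 2.411e-07 and 1.267e-06). Under quantile normalization the second difference was 0.22 and was still called. Arid1b, the DNA-binding subunit of the same complex, was lowest in the cortex. It was lower in the cortex than in the hippocampus and in the striatum, with log2 differences of −0.38 and −0.20 (limma adjusted p = 5.185e-05 and 0.01829). The call against the striatum was lost without cortical replicate 3 or striatal replicate 4, with −0.25 to −0.16 over the 10 mice left out in turn. The hippocampus minus striatum difference, 0.17 (limma adjusted p = 0.04694), was 0.12 to 0.22 over such fits, and its call was lost in 8 of the 10, all but those without hippocampal replicate 1 or striatal replicate 4. Chd2, a helicase of active genes, was higher in the striatum than in the cortex and the hippocampus, with differences of −0.29 and −0.43 (limma adjusted p = 0.01034 and 0.0002001), and Chd8, a remodeller that binds active promoters, was called between no pair of WT regions.

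Of the 7 histone methyltransferases, Setd5 was the only one called as higher in the cortex than in both other regions, by 0.18 over the striatum and 0.25 over the hippocampus. The difference from the hippocampus was 0.16 without hippocampal replicate 1 and 0.17 under quantile normalization, and was still called in both. Kmt5b, which methylates histone H4, was higher in the striatum than in the cortex (log2 difference of cortex minus striatum −0.33, limma adjusted p = 0.003273) and the hippocampus (−0.27, limma adjusted p = 0.01964). The call against the hippocampus was lost without hippocampal replicate 1 (−0.16) or striatal replicate 2. Kmt2a and Ash1l, of the trithorax group, were lower in the hippocampus than in the striatum, with differences of −0.44 and −0.29, and Ash1l also lower than in the cortex, by 0.20. Without hippocampal replicate 1 the differences from the striatum were −0.28 and −0.19 and were still called. That of Ash1l from the cortex was then 0.09 and was not called, and it was not called without cortical replicate 2 or 4 either. Kmt2c, Nsd1 and Ehmt1 were called in no WT comparison, with spans of 0.13, 0.17 and 0.18. Calls of these 3 appeared when single mice were left out, and also when the replicate number was added to the fit as a block. Without hippocampal replicate 1 Kmt2c was called between cortex and hippocampus, at −0.21. Ehmt1 was called between cortex and striatum without cortical replicate 4 (−0.26) or striatal replicate 5 (−0.22), and between cortex and hippocampus without the former (−0.20). Nsd1 was called between hippocampus and striatum without hippocampal replicate 2 (−0.21) or 3 (−0.20) or striatal replicate 5 (−0.19).

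The acetyltransferases Crebbp and Ep300 are close paralogues. Crebbp was lowest in the hippocampus. It had 2158 ± 181.8 normalized counts there, against 2730 ± 184.2 in the cortex and 2614 ± 202.7 in the striatum (SD, n = 5), and both differences were called. Ep300 was called only between hippocampus and striatum, with a difference of −0.26 (limma adjusted p = 0.01324). Without hippocampal replicate 1 this was −0.14 (limma adjusted p = 0.1312), and the cortex minus hippocampus difference turned from 0.09 to −0.03. Of the demethylases, Kdm6b, which removes the Polycomb mark and is induced by neuronal activity, was highest in the hippocampus. It had 1275 ± 83.52 there, 941 ± 132.4 in the striatum and 845.4 ± 195 in the cortex. Kdm5b, which removes marks of active promoters, rose from the cortex (1669 ± 77.51) over the hippocampus (1898 ± 70.41) to the striatum (2135 ± 85.59), and all 3 pairs were called.

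Dnmt3a, the enzyme that lays down neuronal non-CpG methylation, had the largest span outside the transcription factors. The WT mice had 3405, 3463, 3202, 3531 and 3218 normalized counts in cortex, 2288, 2516, 2515, 2422 and 2366 in hippocampus, and 4629, 4688, 4728, 4365 and 4265 in striatum. No values overlapped between regions. The hippocampus was lower than the striatum, with a log2 difference of −0.90 ± 0.07 (SE, n = 5; limma adjusted p = 6.423e-15). Mbd5 was called only between cortex and striatum, at −0.20, and this call was lost in 7 of 10 fits that left out 1 mouse (cortical replicates 1, 3 and 5 and striatal replicates 1, 2, 3 and 4), with differences of −0.25 to −0.18 over the 10. Between hippocampus and striatum it was called only without striatal replicate 5 (−0.20).

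Of the proteins of heterochromatin and genome architecture, Pogz, Ctcf and Nipbl were called as higher in the striatum than in either of the other regions. The largest differences were those of Pogz, a heterochromatin zinc-finger protein, with 2384 ± 107.8 normalized counts in the striatum, 1764 ± 143.3 in the hippocampus and 1660 ± 72.75 in the cortex (SD, n = 5). For Ctcf, the insulator protein, and Nipbl, the cohesin loader, the cortex minus striatum differences were −0.20 and −0.40. Against the hippocampus, the call of Nipbl (−0.21) was lost without hippocampal replicate 1 (−0.10) or striatal replicate 2 or 3, and that of Ctcf (−0.11) in 4 of 10 fits that left out 1 mouse (hippocampal replicates 4 and 5 and striatal replicates 1 and 2), with −0.14 to −0.09 over the 10. Without hippocampal replicate 1 Nipbl was also called between cortex and hippocampus, at −0.29. Adnp, which binds heterochromatin, was called in no comparison, and its WT mice varied widely, from 1041 to 1953 in the cortex.

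Among the cofactors, Tcf20, Phf12, Rai1 and Auts2 were higher in the striatum than in the cortex and the hippocampus. Tcf20, a large nuclear coactivator and relative of Rai1, had 4835 ± 318 normalized counts in the striatum and 3107 ± 173.4 in the cortex (SD, n = 5), a cortex minus striatum difference of −0.64 (limma adjusted p = 7.908e-10). Auts2, an activating partner of a Polycomb complex, had a cortex minus striatum difference of the same size, −0.64 (limma adjusted p = 2.539e-09). Its hippocampus minus striatum difference, −0.21, was −0.15 and not called without hippocampal replicate 1, and it was not called without hippocampal replicate 4 or striatal replicate 2 or 4 either. Without that mouse Tcf20 was also called between cortex and hippocampus, at −0.19. Phf21a, a reader of unmethylated histone H3, was lower in the cortex than in the striatum (difference −0.60) and the hippocampus (−0.39), and the second call was lost without cortical replicate 1 (−0.30). Asxl3 went the other way, with 360 ± 49.53 in cortex, 315.9 ± 68.23 in hippocampus, and 200.2 ± 22.8 in striatum. Med13l, of the Mediator kinase module, was lower in the hippocampus than in the cortex and the striatum. Its cortex minus hippocampus difference was 0.42 (limma adjusted p = 2.89e-05). Its hippocampus minus striatum difference was −0.27, and −0.16 without hippocampal replicate 1, and was called in both fits. Ankrd11 and Wac were called in no comparison, and Ankrd11 had the smallest span of all members, 0.07 on the log2 scale.

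Dyrk1a, a protein kinase encoded on the mouse counterpart of the Down syndrome region, was higher in the cortex than in the striatum and the hippocampus, by 0.28 and 0.17. The second call was lost in 6 of 10 fits that left out 1 mouse (cortical replicates 1, 2 and 4 and hippocampal replicates 1, 4 and 5), with differences of 0.12 to 0.20 over the 10. Without hippocampal replicate 1 the difference was 0.12 (limma adjusted p = 0.1647). Trip12 and Cul3, of the ubiquitin system, and Hnrnpu were higher in the striatum than in the other regions, with differences of −0.15 to −0.27. Against the hippocampus, the calls of Trip12 and Cul3 were lost in 2 and 5 of 10 fits that left out 1 mouse, and among these was hippocampal replicate 1 (−0.11 and −0.13). For Cul3 the others were hippocampal replicate 4 and striatal replicates 1, 2 and 3, and for Trip12 striatal replicate 2. Against the cortex they were lost in 5 and 2 of 10 (for Trip12 cortical replicates 1, 3 and 4 and striatal replicates 1 and 2, at −0.20 to −0.12 over the 10, and for Cul3 cortical replicate 4 and striatal replicate 2, at −0.20 to −0.12), and that of Hnrnpu in 1 (striatal replicate 2, −0.14).

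The regions were compared again in the mutant mice, which are other animals. Between cortex and striatum 22 regulators were called in Shank3-HT mice (58.6% of all genes) and 22 in Shank3-HM mice (57.4%). Between cortex and hippocampus these were 16 (45%) and 14 (42.2%), and between hippocampus and striatum 19 (53.6%) and 23 (54.8%). Of the regulators called in WT mice, 20 were called in the same direction in all 3 genotypes between cortex and striatum, 11 between cortex and hippocampus, and 17 between hippocampus and striatum. The same held for 47.31%, 32.83% and 42.54% of all genes. Of the regulators called in WT mice, 1 had the opposite sign in a mutant genotype. This was Dyrk1a, whose cortex minus hippocampus difference was 0.17 in WT mice. It was −0.01 for Shank3-HT and 0.06 for Shank3-HM, neither of which was called. The striatum was the higher region for 14 of the 20 and 11 of the 17, and the shares of all genes by direction were not computed. Foxp1, Satb1 and Tcf4 were among the regulators called in all 3 genotypes in each of the 3 pairs, and Myt1l in both pairs with the striatum. In Shank3-HM mice without cortical replicate 2, 21 regulators were called between cortex and striatum (58% of all genes) and 13 between cortex and hippocampus (43.3%).

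Of 146 partners and paralogues of the regulators, listed from general knowledge, 94 were called between WT cortex and striatum (64.4%, against 59.3% of all genes). Of these, 63 were higher in the striatum (43.2% of the 146, against 30% of all genes). Between hippocampus and striatum 93 were called (63.7%, against 56.1%), with 62 higher in the striatum (42.5%, against 27.8%). Between cortex and hippocampus 65 were called (44.5%, against 46.6%), with 27 higher in the cortex (18.5%, against 23.3%). Beside the paralogues above, others with large differences were Tcf7, a Wnt effector related to Tcf7l2, the BAF subunit Dpf3, the remodellers Chd9 and Chd5, the kinase Dyrk2 and the demethylase Kdm3a. Tcf7 and Kdm3a were highest in the striatum, with hippocampus minus striatum differences of −2.74 and −1.40. Dpf3 and Chd9 were lowest there, with hippocampus minus striatum differences of 2.32 and 1.77. Dyrk2 and Chd5 were higher in the cortex than in the striatum by 1.54 and 1.46.

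The second comparison asked whether loss of Shank3 changes the regulators within a region. In none of the 9 genotype comparisons was any of the 40 called with limma, and the same was true of the 146 partners. All genes called were 2 (0.0121%) for Shank3-HM against WT in cortex, 1 (0.00603%) in hippocampus and 30 (0.182%) in striatum. For Shank3-HT against WT they were 0, 1 (0.00603%) and 1 (0.00607%), and for Shank3-HM against Shank3-HT 1 (0.00606%), 1 (0.00603%) and 23 (0.14%). At an unadjusted p under 0.05 there were, for Shank3-HM against WT, 3 regulators in the cortex (5.49% of all genes), 3 in the hippocampus (4.73%) and 0 in the striatum (7.43%). For Shank3-HT against WT there were 1 (2.68%), 4 (5.26%) and 3 (7.43%), and for Shank3-HM against Shank3-HT 1 (4.87%), 0 (2.09%) and 1 (6.49%).

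The differences were small. Over the 6 comparisons with WT, the log2 differences of the 40 genes ran from −0.19 to 0.35. Their medians were 0.02 (Shank3-HM) and 0.01 (Shank3-HT) in cortex, 0.06 and 0.07 in hippocampus, and −0.02 and −0.02 in striatum. The difference between regions in the effect of either genotype was also tested, and in all 6 of these tests 0 of the 40 regulators were called. Over all genes, 9 (0.0539%) were called for Shank3-HM in cortex against striatum, 12 (0.0718%) in hippocampus against striatum and 0 in the other 4 tests. At an unadjusted p under 0.05 there were 2 regulators for Shank3-HT in cortex against striatum (Pogz and Kdm6b; 3.46% of all genes), 1 in hippocampus against striatum (Satb1; 5.6%) and 0 in cortex against hippocampus (3.35%). For Shank3-HM these were 1 (Phf12; 5.42%), 0 (5.37%) and 0 (4.45%). The 2 mutant genotypes share their WT mice in each region, so their differences from WT are not independent.

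**Figure D3:**
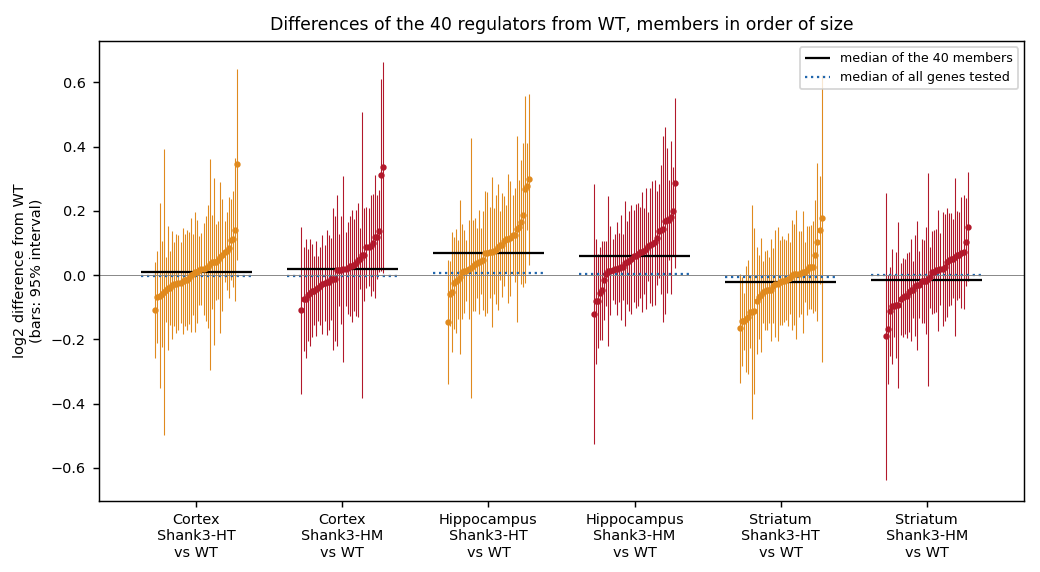
Log2 difference from WT of each of the 40 regulators (points, with 95% intervals) in the 6 comparisons, in order of size within each; the solid line is the median of the 40 and the dotted line the median of all genes tested. No member was called, and the medians of the hippocampus lie at 0.06 and 0.07, above that of all genes.

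In the hippocampus most regulators lay slightly above WT, 34 of 40 in Shank3-HM (51.48% of all genes) and 33 of 40 in Shank3-HT mice (52.02%). Both counts were lower without 1 WT mouse. In that mouse, hippocampal WT replicate 1, 35 of the 40 regulators lay below the mean of the other 4 WT mice, and 31 were the lowest of the 5, against 31.02% of all genes. The median difference of the 40 from the other 4 mice was −0.26 on the log2 scale. Other genes with coding sequences of at least 3591 bases, 1444 in number, were also low in this mouse, by a median of −0.24, while the median of all genes was 0.00. Its sums of 8 hippocampal neuron and 8 astrocyte markers were also the lowest of its group, 22390 and 117000 against medians of 28250 and 138300. Of the 13 marker sums computed, 7 were lowest in this mouse (also those of striatal projection neurons, thalamic and habenular neurons, oligodendrocytes, their precursors, and neuroblasts and progenitors), and 1 was highest, that of cortical projection neurons, at 46710 against a median of 43970. Their part in the shift was not tested. Without this mouse 20 regulators were higher in Shank3-HM and 23 in Shank3-HT mice, with medians of 0.00 and 0.01.

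**Figure D4:**
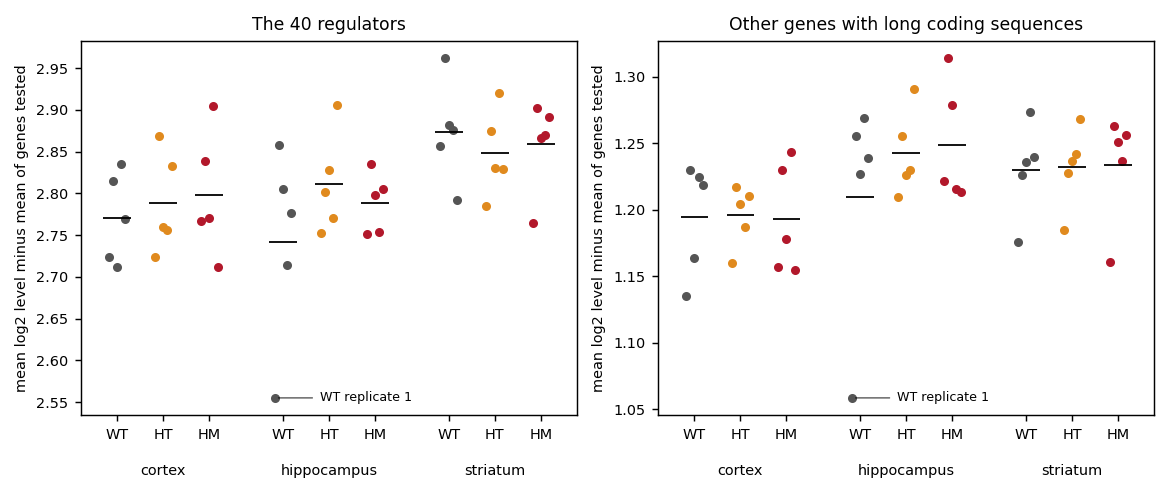
Mean log2 level of the 40 regulators (left) and of 1444 other genes with long coding sequences (right) minus the mean of all genes tested, in each mouse. Lines are group means (n = 5). Hippocampal WT replicate 1 lies at 2.55 on the left, below the 2.71 to 2.86 of the other 4 WT mice, and is also the lowest point on the right.

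Members that stood out by rule were those whose 5 mutant and 5 WT mice did not overlap and, for each comparison with WT, the 2 with the smallest unadjusted p. Non-overlapping members numbered 1 each in the Shank3-HT cortex (0.63% of all genes), the Shank3-HT hippocampus (0.797%), the Shank3-HT striatum (0.971%) and between Shank3-HM and Shank3-HT striatum (1.27%), and 0 in the others. These were Shank3-HM against WT in the cortex (0.8% of all genes), hippocampus (0.736%) and striatum (1.86%), and Shank3-HM against Shank3-HT in the cortex (0.727%) and hippocampus (0.447%).

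Satb1 in the hippocampus had the smallest unadjusted p of all. Values were 1726, 2060, 1805, 1951 and 2234 in WT, 2427, 2318, 2478, 2311 and 2261 in Shank3-HT and 2229, 2291, 2095, 2134 and 2455 in Shank3-HM mice. All Shank3-HT mice lay above all WT mice, while the Shank3-HM mice overlapped both. The log2 difference from WT was 0.28 ± 0.06 in Shank3-HT (SE, n = 5; limma unadjusted p = 0.0005002, adjusted p = 0.7604) and 0.20 ± 0.06 in Shank3-HM mice (limma unadjusted p = 0.006383, adjusted p = 0.92). Leaving out WT replicate 1 gave 0.23 and 0.16. In the cortex the difference in Shank3-HM mice was −0.11 ± 0.12, and there Shank3-HM replicate 2 had 2556, against 3823 to 4726 in the other 4. Without it the difference was 0.04 ± 0.07. The mouse left out is the one with the high striatal marker sum.

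Asxl3 in the hippocampus had 203.6, 375.5, 306.9, 331.3 and 362.1 normalized counts in WT and 376, 359.2, 396.6, 358.4 and 412.8 in Shank3-HT mice. The groups overlapped, and the lowest value was that of WT replicate 1. The log2 difference was 0.30 ± 0.13 (SE, n = 5; limma adjusted p = 0.9259), and 0.15 without that mouse.

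Kdm6b met the rule in the cortex and in the hippocampus. In the cortex it had 1013, 604.2, 682.4, 888.8 and 1039 in WT, 1337, 999.7, 877.5, 987.7 and 1102 in Shank3-HT and 1084, 1195, 1041, 933.4 and 905.5 in Shank3-HM mice. WT replicates 2 and 3 were the lowest, and the groups overlapped. The differences from WT were 0.35 ± 0.14 and 0.31 ± 0.14 (SE, n = 5; limma adjusted p = 0.9997 and 0.8775), and without WT replicate 2 they were 0.23 and 0.20. In the hippocampus the Shank3-HM difference was 0.17 ± 0.06 (limma adjusted p = 0.92), and 1320 to 1551 in Shank3-HM mice overlapped 1196 to 1382 in WT mice.

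Ep300 in the cortex had 2027, 2284, 2238, 2488 and 2375 in WT and 2373, 2549, 2367, 2576 and 2673 in Shank3-HM mice, which overlapped, and differed by 0.14 ± 0.06 (SE, n = 5; limma adjusted p = 0.8775). The Shank3-HT difference was 0.11 ± 0.06 (limma adjusted p = 0.9997). Ctcf in the cortex had 1765 to 1946 in WT and 1948 to 2011 in Shank3-HT mice. These groups did not overlap, but they were parted by 2 normalized counts, and the difference was 0.07 ± 0.04 (limma adjusted p = 0.9997).

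In the striatum Pogz had 2366, 2523, 2308, 2462 and 2262 in WT, 2084, 2104, 2171, 2230 and 2195 in Shank3-HT and 2253, 2290, 2385, 2323 and 2289 in Shank3-HM mice. The Shank3-HT mice lay below all of the others, with a log2 difference from WT of −0.14 ± 0.04 (SE, n = 5; limma unadjusted p = 0.003249, adjusted p = 0.5885). Shank3-HM exceeded Shank3-HT mice by 0.10 ± 0.04 (limma adjusted p = 0.7247). Chd8 had 2980 to 3649 in WT and 2743 to 3244 in Shank3-HT mice, a difference of −0.14 ± 0.07 (limma adjusted p = 0.6593). For Shank3-HM mice the 2 members with the smallest p were Bcl11a, at −0.17 ± 0.08, and Smarcc2, at −0.09 ± 0.05 (limma adjusted p = 0.6754 and 0.68), and both overlapped WT.

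**Figure D5:**
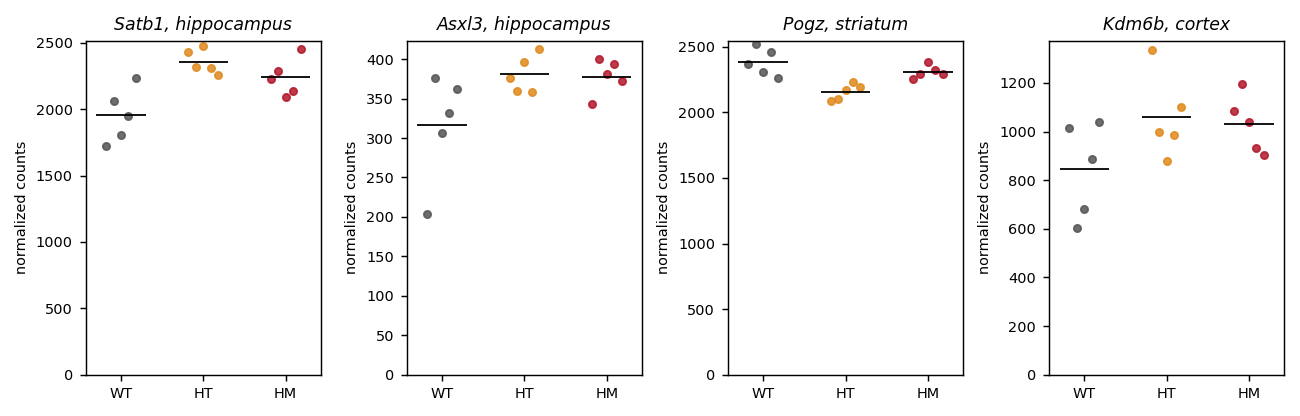
Normalized counts of Satb1 and Asxl3 in the hippocampus, Pogz in the striatum and Kdm6b in the cortex of each mouse, by genotype; lines are group means (n = 5) and axes start at 0. The Shank3-HT mice lie above WT for hippocampal Satb1 and below WT for striatal Pogz, and the other panels overlap.

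Between mice of one group, the median coefficient of variation of the 40 was 6.305% to 10.99% over the 9 groups. It was below that of all genes (8.92% to 12.67%) and above that of genes of the same range of levels (5.003% to 8.461%) in each of the 9 groups, by the least in the Shank3-HT striatum (6.829% against 6.686%). It was highest in the hippocampal WT group, which holds replicate 1.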

How the data were processed

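RNA of 45 samples was sequenced from TruSeq stranded mRNA libraries. Per the labels and the methods, the authors quantified reads with Salmon 1.1.0 (GC bias correction, GRCm38), imported them with tximport and normalized them with DESeq2. The submitters' processing notes give DESeq2 1.26.0 and R 3.6.2, and the methods name other versions of both, so which made the deposited values is not settled here. The deposited signal values are these normalized counts. No single step per sample gave whole reads (12.84% to 31.95% of values near whole multiples within 0.05, where 10% would by chance), so no count test was run. Normalized sums were 26118607 to 29568983 per sample, and the depth is unknown.

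Gene names, lengths and exons came from GENCODE vM21 and RefSeq, with 18120 of 18135 rows named. Here, log2(value + 1) was fitted with limma 3.58.1 (lmFit, eBayes with intensity trend) in R 4.3.3, for genes with a mean of at least 10 (16507 in the cortex, 16571 in the hippocampus, 16482 in the striatum), with the 3 genotypes of a region in 1 fit. Regions and differences between regions in a genotype's effect were tested in 1 fit of the 9 groups (16708 genes). P values were adjusted by Benjamini-Hochberg over all genes tested. The test was checked on simulated data with added differences larger than any difference from WT of the regulators. It was not checked for smaller ones. Shank3 itself, at 76.68% of the WT mean in the Shank3-HT cortex, was not called there (limma adjusted p = 0.2878). Python 3.11.15 with numpy 2.4.6, pandas 2.3.3 and matplotlib 3.10.9 was used for the rest.

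Described per mouse were members called with at least 1 on the log2 scale between WT regions and, by genotype, members called or not overlapping and the 2 with the smallest unadjusted p per comparison with WT. At most 10 partners were named, by size, and 1 of these is not reported here. The members, gene lists and alternatives were chosen with earlier results of these data known. The labels do not say whether samples of one number come from one mouse. Samples of different regions correlated best with their own number in 26 of 45 cases. Between genotypes of one region, which are different mice, this was 14 of 45. Shared mice across regions are therefore possible. The main fits assumed no pairing, and a block for the replicate number was an alternative. Members were compared with other genes only by counts and medians.

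Alternatives were no intensity trend, quantile normalization, a pseudocount of 0.1, no filter or a minimum mean of 100, fitting the compared groups alone, a block for the replicate number, coding length in place of transcript length, and leaving out each mouse in turn.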

Additional observations from a re-analysis of the deposited data

Results flagged for a closer look

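Of 108 groups of 5 mice looked at (12 members in 9 groups), 7 held a mouse far from the others by the gap of the most extreme value, where about 5% would by chance. Tcf4 had 8997 normalized counts in hippocampal WT replicate 1, against 12220 to 13240 in the other 4, the mouse in which 31 of the 40 regulators were lowest. Satb1 had 1104 in striatal Shank3-HT replicate 3, against 591.7 to 709.2, and this mouse had the highest sum of cortical projection neuron markers of its group, 10490 against a median of 5396. Striatal WT replicate 5 was high for Asxl3 (239.4, against 179.4 to 194.4) and Kdm6b (1166, against 841.5 to 927.8), and its sum of cortical projection neuron markers was the highest of its group, 13070. The WT mean of the cortex was above that of the striatum for Satb1 and Asxl3. For Kdm6b it was below that of the striatum, a difference that was not called. The part of these markers in the values was not tested.

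Kdm6b had 1253 in hippocampal Shank3-HT replicate 3, against 1407 to 1445 in the others. Myt1l had 6810 in hippocampal Shank3-HT replicate 5, against 5931 to 6098. Smarcc2 had 8058 in cortical Shank3-HT replicate 1, against 9256 to 9580.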

How the results depend on the processing

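The count of regulators called kept within 1.5 times its value under every alternative and with every mouse left out (468 of 468 values). It ranged from 22 to 29 between WT cortex and striatum, 13 to 18 between cortex and hippocampus and 19 to 28 between hippocampus and striatum. In each genotype comparison and each test of a difference in effect it was 0 throughout. Such values of 0 count as kept among the 468. The 26 log2 differences of members described per mouse (Foxp1, Satb1, Tcf4 and Myt1l in each WT region pair, and each genotype comparison in which a member met the rule for naming it) kept their direction and side of the threshold (442 of 442 values). The cortical Shank3-HM difference of Satb1, which is not among them, turned from −0.11 to 0.04 without Shank3-HM replicate 2. Over all 40 members, 21 of the 26 calls between cortex and striatum, 12 of the 15 between cortex and hippocampus and 19 of the 27 between hippocampus and striatum held under every alternative and with every mouse left out, and no called difference changed sign. The calls lost under at least 1 were those of Arid1b, Cul3, Hnrnpu, Mbd5 and Trip12 (cortex and striatum), Ash1l, Dyrk1a and Phf21a (cortex and hippocampus) and Arid1b, Auts2, Ctcf, Cul3, Ep300, Kmt5b, Nipbl and Trip12 (hippocampus and striatum). The fit of only the groups compared lost all 8 of the last. Leaving out hippocampal WT replicate 1 lost 6 of them, and striatal WT replicate 2 lost 7. Quantile normalization lost 2 of the 15 calls between cortex and hippocampus (Ash1l and Dyrk1a) and 5 of the 27 between hippocampus and striatum (Ctcf, Nipbl, Auts2, Trip12 and Cul3). It added 4 in the former pair (Kmt2c, Ctcf, Nipbl and Tcf20) and 1 in the latter (Dyrk1a). Calls gained under at least 1 alternative or without at least 1 mouse were those of Ehmt1, Ep300, Kdm6b, Kmt2a, Med13l and Nsd1 (cortex and striatum), Asxl3, Ctcf, Ehmt1, Kmt2a, Kmt2c, Nipbl and Tcf20 (cortex and hippocampus) and Dyrk1a, Mbd5 and Nsd1 (hippocampus and striatum). With the replicate number as a block, 29, 18 and 28 regulators were called in these WT region pairs (61.6%, 49.9% and 58.7% of all genes, against 59.3%, 46.6% and 56.1% without it) and 0 by genotype. The block moved no count by over 1.5 times. It ended no region call and added 3 (Kmt2a, Ehmt1 and Med13l), 3 (Kmt2a, Kmt2c and Nipbl) and 1 (Nsd1). Same-numbered samples of different regions correlated above 0.1 in 16 of 45 pairs and best with their own number in 26 of 45. For genotypes of one region these were 7 and 14 of 45.

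The count of regulators higher than in the other group, a measure added after seeing the data, moved with single mice. For hippocampal Shank3-HM against WT (34) it ranged from 20, without WT replicate 1, to 35. For hippocampal Shank3-HM against Shank3-HT (17) it ranged from 10, without Shank3-HT replicate 1, to 25. For striatal Shank3-HT against WT (15) it ranged from 9, without WT replicate 1, to 19. With coding length in place of transcript length, the median percentile of the regulators moved to 57.39 (cortex), 57.31 (hippocampus) and 60.69 (striatum). The depth is unknown and limits what small differences can show.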
